A study of Mus musculus with 13 samples.

Results

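Genes that mark astrocytes were followed through the CA1 transcriptomes of mouse slice cultures that had lost one of their excitatory inputs. They are the 10 rows, of 55291 gene symbols in the count tables, whose symbol was *Gfap*, *Vim*, *Serpina3n*, *Aqp4*, *Aldh1l1*, *Slc1a2*, *Slc1a3*, *Glul*, *S100b* or *Gja1*, and the rule used symbols alone. The study asked how CA1 responds to the loss of distinct inputs. RNA was sequenced from the CA1 region of single organotypic entorhino-hippocampal cultures, which are slices of entorhinal cortex and hippocampus kept alive on a membrane. There were 5 libraries from non-lesioned control cultures, 4 from cultures with a Schaffer collateral lesion (SCL) and 4 from cultures with an entorhinal cortex lesion (ECL). SCL was a scalpel cut between CA3 and CA1, and ECL was a transection of the perforant path from the entorhinal cortex.

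All 13 cultures were labelled C57BL/6 and wildtype, were prepared from mouse pups at postnatal day 4 to 5, and matured for at least 18 days in vitro. Lesioned cultures were collected 3 days after the cut, without the scar. Each library came from 1 culture, and whether several cultures came from 1 animal was not stated in the sources used here, so p-values measure the spread between cultures. Library totals ran from 14371152 to 21092612 counts in the control group, from 16405517 to 56786613 in the SCL group and from 20210165 to 46449937 in the ECL group. The 10 genes together took 0.929% to 1.33% of the counts of a library. In each library 63.0% to 74.3% of the counts between 1 and 20 were even numbers, as when both mates of a read pair are counted, which was not tested directly, and counts were therefore not read as independent molecules. The label of the tissue named CA1 while the extraction text spoke of the dentate gyrus. The CA1 marker *Wfs1* lay at 1.84 to 6.56 CPM (counts per 1000000 counts of the library) per kilobase of exon over the 13 libraries and the dentate granule cell marker *Prox1* at 1.26 to 2.38. Without division by length, *Prox1* averaged 16.3, 12.3 and 14.9 CPM in the control, SCL and ECL groups, and *Wfs1* 10.0, 9.79 and 15.8. The further granule cell markers *Dsp*, *C1ql2* and *Lct* averaged under 1 CPM in each group, while *Stxbp6*, of the same list, averaged 53.6, 32.4 and 33.5. The CA1 markers *Fibcd1* and *Mpped1* averaged 69.1 to 82.4 and 121 to 134 CPM.

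Astrocytes take up the glutamate and potassium that neurons release, return glutamine to them, and couple to each other through gap junctions. After injury or denervation they become reactive, a state classically recognised by more glial fibrillary acidic protein in a thickened intermediate filament skeleton. The first 3 of the genes are markers of that state: *Gfap* and *Vim* encode intermediate filament proteins, and *Serpina3n* encodes a secreted inhibitor of serine proteases. The other 7 serve astrocyte housekeeping: *Aqp4* the water channel of the end-feet, *Gja1* the main gap junction connexin, *Aldh1l1* a folate enzyme, *S100b* a calcium-binding protein, *Slc1a2* and *Slc1a3* the glutamate transporters GLT-1 and GLAST, and *Glul* glutamine synthetase. None of the 10 is made by astrocytes alone: *Vim* is also made by microglia and vessel cells, and *Serpina3n* and *S100b* by cells of the oligodendrocyte line.

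The sequences just upstream of 3 of the genes are shown because these genes behaved differently below: *Gfap* and *Serpina3n* rose after both lesions and *Slc1a3* was not called after either. Each is the 250 bases before the transcript start in RefSeq, on GRCm38.p6, written 5′ to 3′ on the strand of the gene. They lie at chr11:102897201-102897450 on the minus strand for *Gfap*, at chr12:104406458-104406707 on the plus strand for *Serpina3n* and at chr15:8710808-8711057 on the minus strand for *Slc1a3*, and none of the 3 windows overlaps an annotated exon. Capitals mark matches to the motifs that were searched.
Gfap: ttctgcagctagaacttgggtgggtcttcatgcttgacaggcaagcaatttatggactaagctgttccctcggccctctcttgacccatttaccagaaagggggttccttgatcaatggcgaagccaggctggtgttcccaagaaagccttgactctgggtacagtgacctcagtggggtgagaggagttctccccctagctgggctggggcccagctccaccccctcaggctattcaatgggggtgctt
Serpina3n: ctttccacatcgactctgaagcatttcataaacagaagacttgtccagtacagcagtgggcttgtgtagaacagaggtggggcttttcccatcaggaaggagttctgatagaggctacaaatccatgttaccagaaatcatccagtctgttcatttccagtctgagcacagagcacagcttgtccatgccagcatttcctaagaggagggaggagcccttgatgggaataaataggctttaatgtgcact
Slc1a3: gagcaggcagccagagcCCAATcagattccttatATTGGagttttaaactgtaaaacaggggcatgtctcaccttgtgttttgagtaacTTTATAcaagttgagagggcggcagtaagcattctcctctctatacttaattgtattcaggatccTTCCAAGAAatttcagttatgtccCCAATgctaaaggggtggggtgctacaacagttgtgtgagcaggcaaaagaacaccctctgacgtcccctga

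A set of 5 letter patterns was searched on both strands in the windows of the 9 genes with a RefSeq promoter entry (all but *Aqp4*). They were the STAT pattern TTCNNNGAA, present in 7.02% of 32841 promoters of this length, the AP-1 pattern TGANTCA (6.75%), TATAAA (12.4%), CCAAT (33.9%) and the full palindrome of nuclear factor I (0.0365%), which was in none of the 9 windows. The *Gfap* and *Serpina3n* windows held none of the 5. The *Slc1a3* window held the STAT pattern 96 to 88 bases before the start, CCAAT at 3 places and TATAAA on the opposite strand 161 to 156 bases before the start. The *Gja1* window held the AP-1 pattern 19 to 13 bases before the start. A match describes letters in a window and says nothing of binding.

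Levels are given as CPM after TMM scaling, a scaling that sets most genes to be equal between libraries. Differences are log2 fold changes from edgeR quasi-likelihood fits across all genes, and a gene is called when its adjusted p is under 0.05. After SCL, 5 of the 10 genes rose (*Gfap*, *Serpina3n*, *Aqp4*, *Vim* and *Aldh1l1*) and 0 fell, where 24.9% of the 11438 genes tested were called in either direction, 13.1% higher and 11.8% lower. The median log2 fold change of the 10 was 0.52, beside 0.01 over all genes tested. After ECL, 3 rose (*Serpina3n*, *Gfap* and *Aqp4*) and 1 fell (*Glul*), where 27.8% of 11212 genes were called, 15.2% higher and 12.5% lower. The median of the 10 was 0.05, beside -0.01 over all genes. All 10 passed the filter on low counts in every comparison. Both lesions were compared with the same 5 controls, so the 2 comparisons are not independent. Without the SCL 3 library the genes called after SCL fell from 2848 to 1679 in all.

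**Figure D1:**
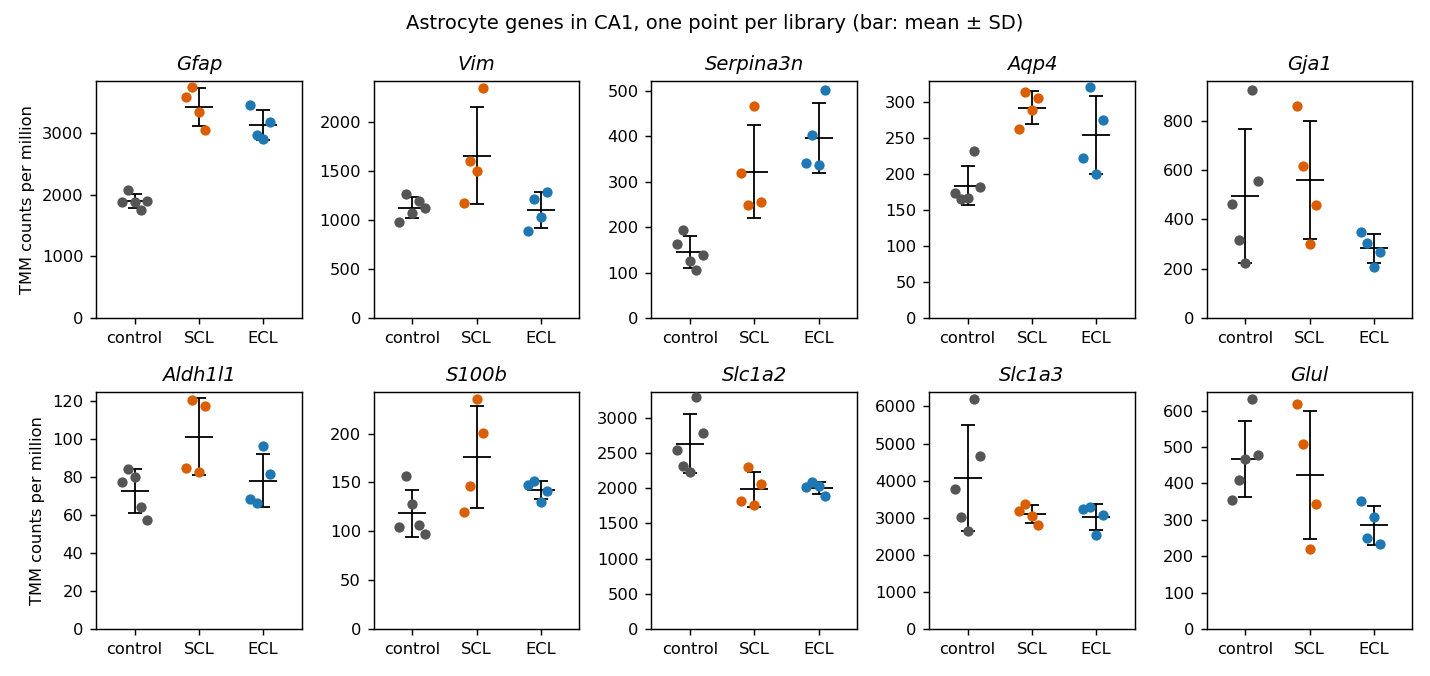
Levels of the 10 astrocyte genes in TMM-scaled counts per 1000000 (CPM, vertical axes from 0), 1 point for each of 5 control, 4 SCL and 4 ECL libraries, with the mean and SD as bars. The SCL and ECL points of Gfap and Serpina3n all lie above the control points, while the ECL points of Glul and Slc1a2 all lie below them.

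*Gfap* (chr11:102887336-102900912, minus strand, GRCm38) rose after both lesions. Its level was 1874, 2071, 1874, 1749 and 1903 CPM in control libraries 1 to 5, 3574, 3737, 3329 and 3037 in SCL libraries 1 to 4, and 3445, 2960, 2901 and 3180 in ECL libraries 1 to 4. The lowest lesioned library stood well above the highest control, and the SCL and ECL libraries overlapped each other. The mean was 1894 ± 115 (SD, n = 5) in controls, 3419 ± 305 (n = 4) after SCL and 3122 ± 247 (n = 4) after ECL. The log2 fold change was 0.85 ± 0.14 (SE) after SCL, with an adjusted p of 0.00243 (edgeR), and 0.73 ± 0.14 after ECL, with an adjusted p of 0.00202 (edgeR). *Gfap* was among the 3 genes whose SCL libraries did not overlap the controls (with *Serpina3n* and *Aqp4*), where 23.6% of all genes tested showed such a gap. After ECL there were 4 such genes (*Gfap*, *Serpina3n*, *Glul* and *Slc1a2*), where the share over all genes was 25.0%.

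*Serpina3n* (chr12:104406729-104414329, plus strand) had the largest fold change of the 10 after each lesion. It lay at 164, 194, 126, 105 and 139 CPM in the controls, at 319, 248, 468 and 255 after SCL and at 341, 403, 337 and 502 after ECL. The control and lesioned ranges were apart, and the highest SCL library was SCL 3. The means were 145 ± 34.4 (SD, n = 5), 323 ± 102 (n = 4) and 396 ± 77.1 (n = 4). *Serpina3n* had a log2 fold change of 1.15 ± 0.22 (SE) in the SCL comparison (adjusted p = 0.00408, edgeR) and of 1.45 ± 0.19 in that of ECL (adjusted p = 0.000204, edgeR), that is 2.22 and 2.72 times the control mean. Of the stretches of 100 bases in its exons 99.8% were unique to it, in a cluster of closely related *Serpina3* genes.

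*Vim* (chr2:13573927-13582826, plus strand), the partner of *Gfap* in the filaments of reactive astrocytes, was called higher after SCL, as *Gfap* was, but not after ECL. It lay at 984, 1265, 1069, 1189 and 1118 CPM in the controls, at 1177, 1598, 1502 and 2342 after SCL and at 887, 1210, 1026 and 1285 after ECL. The ECL libraries spanned the control range, SCL 1 lay within it, and SCL 4 was far above all others. *Vim* had a log2 fold change of 0.56 ± 0.19 (SE) in the SCL comparison (adjusted p = 0.0445, edgeR) and of -0.02 ± 0.15 in that of ECL (adjusted p = 0.933, edgeR), with a 95% interval of -0.35 to 0.30 for the latter. The SCL call was lost when any library but SCL 1 was left out (controls 1 to 5, SCL 2, SCL 3 or SCL 4), with adjusted p between 0.0517 and 0.135, and without SCL 4 the log2 fold change was 0.34. *Vim* relative to *Gfap* ranged from 0.525 to 0.680 over the control libraries, from 0.329 to 0.771 over the SCL and from 0.258 to 0.409 over the ECL libraries.

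*Aqp4* (chr18:15389496-15410982, minus strand) was the one housekeeping gene that rose after both lesions. Its level was 173, 165, 167, 231 and 182 CPM in the controls, 261, 313, 288 and 305 after SCL, and 222, 320, 199.5 and 274.9 after ECL. Every SCL library exceeded every control, while ECL 1 and ECL 3 lay below control 4. The means were 184 ± 27.5 (SD, n = 5), 292 ± 22.7 (n = 4) and 254 ± 54.2 (n = 4). *Aqp4* had a log2 fold change of 0.67 ± 0.13 (SE) in the SCL comparison (adjusted p = 0.00463, edgeR) and of 0.48 ± 0.16 in that of ECL (adjusted p = 0.0410, edgeR). The ECL call was lost without control 1, 2, 3 or 5, ECL 2 or ECL 4, with adjusted p between 0.0787 and 0.140. It was lost as well with the sex in the column headings as a term (adjusted p = 0.0762, edgeR), where 3 of the 4 ECL cultures were male.

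*Aldh1l1* (chr6:90486427-90600203, plus strand), often used to mark all astrocytes, rose after SCL by a narrow margin. It lay at 77.3, 84.2, 79.6, 64.1 and 57.0 CPM in the controls, at 84.7, 120.2, 82.4 and 117 after SCL and at 68.1, 66.1, 95.9 and 81.6 after ECL. SCL 2 and SCL 4 were above all controls, and SCL 1 and SCL 3 were within or just above the control range. *Aldh1l1* had a log2 fold change of 0.48 ± 0.16 (SE) in the SCL comparison (adjusted p = 0.0493, edgeR) and of 0.11 ± 0.16 in that of ECL (adjusted p = 0.647, edgeR). The SCL call was lost without control 1, 3, 4 or 5, SCL 2 or SCL 4, with adjusted p between 0.0552 and 0.153. Of its exon bases 13.4% overlap 2 other annotated genes, so part of its count may belong to them.

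*S100b* (chr10:76253853-76261159, plus strand) passed the threshold after neither lesion. Its level was 104, 157, 128, 106 and 97.5 CPM in the controls, 120, 147, 236 and 201 after SCL, and 148, 151, 129.5 and 141 after ECL. The groups overlapped, and SCL 3 and SCL 4 stood above all other libraries. *S100b* had a log2 fold change of 0.57 ± 0.20 (SE) in the SCL comparison (adjusted p = 0.0571, edgeR) and of 0.27 ± 0.15 in that of ECL (adjusted p = 0.207, edgeR). Without control 2 or without SCL 1 the SCL difference was called, with adjusted p of 0.0304 and 0.0261 (edgeR). It was also called by DESeq2 (adjusted p = 0.0364), while the offset for exon length and GC content lowered it to 0.26 (adjusted p = 0.396, edgeR).

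*Gja1* (chr10:56377330-56402513, plus strand) varied most between cultures of 1 group. It lay at 461, 317, 225, 925 and 554 CPM in the controls, a CV of 54.6%, at 859, 617, 301 and 460.5 after SCL and at 349.5, 305, 209 and 269 after ECL. ECL 3 lay below every control, the other ECL libraries in the lower part of the control range and the SCL libraries within it. *Gja1* had a log2 fold change of 0.18 ± 0.36 (SE) in the SCL comparison (adjusted p = 0.746, edgeR) and of -0.80 ± 0.32 in that of ECL (adjusted p = 0.0742, edgeR), with a 95% interval of -1.48 to -0.12 before adjustment. Without control 2 or control 3 the ECL difference was called, with log2 fold changes of -0.92 and -0.99 and adjusted p of 0.0454 and 0.0182 (edgeR). Without control 4, the highest library, it was -0.46 (adjusted p = 0.176, edgeR), and with an offset for exon length and GC content -0.50 (adjusted p = 0.154, edgeR).

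The 3 genes that clear and convert glutamate had negative fold changes after each lesion, except that *Glul* after SCL turned to 0.079 with scaling factors from all symbols and to 0.079 without SCL 3, and 1 of these 6 differences was called. *Slc1a2* (chr2:102658659-102790784, plus strand), which carries most glutamate uptake in the hippocampus, lay at 2545, 2319, 2235, 3293 and 2783 CPM in the controls, at 1818, 2297, 1756 and 2062 after SCL and at 2011, 2083, 2034 and 1891 after ECL. All ECL libraries were below all controls, and SCL 2 alone of the SCL libraries reached the control range. *Slc1a2* had a log2 fold change of -0.41 ± 0.16 (SE) in the SCL comparison (adjusted p = 0.0783, edgeR) and of -0.39 ± 0.15 in that of ECL (adjusted p = 0.0759, edgeR), neither called. DESeq2 called both, with adjusted p of 0.0287 and 0.0288. An offset for exon length and GC content brought them to -0.095 and -0.088 (adjusted p = 0.591 and 0.586, edgeR), and scaling factors from all symbols to -0.20 and -0.19. *Slc1a3* (chr15:8634124-8710764, minus strand) lay at 3782, 3028, 2652, 6214 and 4665 CPM in the controls, at 3180, 3358, 3048 and 2808 after SCL and at 3230, 3296, 2527 and 3064 after ECL. The lesioned libraries overlapped the lower controls, and controls 1, 4 and 5 stood above all of them. Its SCL log2 fold change was -0.39 ± 0.22 (SE, adjusted p = 0.221, edgeR), and that of ECL -0.42 ± 0.23 (adjusted p = 0.189, edgeR). Both values leaned on control 4, and without it were -0.19 and -0.22 (adjusted p = 0.477 and 0.407, edgeR). With the length and GC offset they were -0.17 and -0.18.

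*Glul* (chr1:153899944-153909723, plus strand), whose enzyme joins ammonia to the glutamate taken up, fell after ECL. It lay at 353, 410, 468, 632 and 477 CPM in the controls, at 618, 510, 219 and 344 after SCL and at 350.5, 251, 307 and 233 after ECL. The highest ECL library was just below the lowest control, while the SCL libraries spread from below to near the top of the control range. The means were 468 ± 104 (SD, n = 5), 423 ± 177 (n = 4) and 286 ± 53.5 (n = 4). *Glul* had a log2 fold change of -0.70 ± 0.18 (SE) after ECL (adjusted p = 0.0115, edgeR) and of -0.14 ± 0.26 after SCL (adjusted p = 0.721, edgeR). With TMM factors from every symbol instead, the ECL value was -0.50 and no longer called (adjusted p = 0.0576, edgeR). Under these factors the median of all genes was 0.21 for SCL and 0.18 for ECL, and *Slc1a2*, *Slc1a3* and *Glul* stayed below that median after both lesions.

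**Figure D2:**
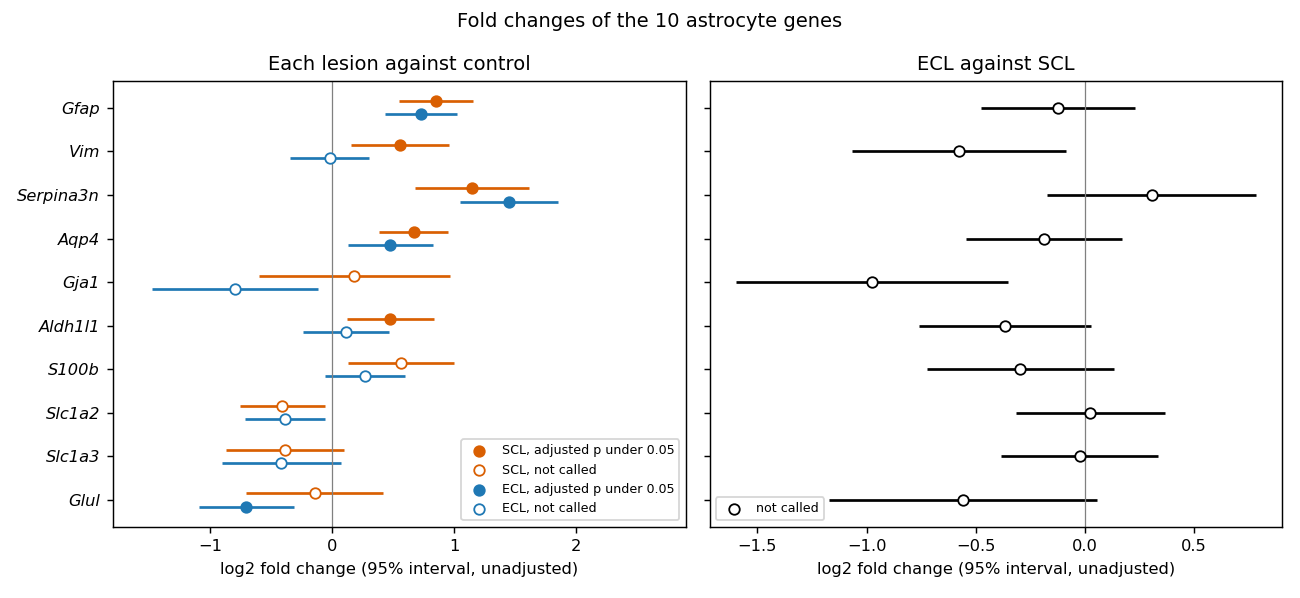
Log2 fold changes of the 10 astrocyte genes (horizontal axes) with 95% intervals before adjustment, for each lesion against control on the left and ECL against SCL on the right; filled points are called at an adjusted p under 0.05. Gfap, Serpina3n and Aqp4 are filled for both lesions, Vim and Aldh1l1 for SCL, Glul for ECL, and no point is filled between the lesions.

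The lesions were also set against each other directly, since a call after one and not after the other does not show a difference between them. Of 12232 genes tested 0 were called by edgeR (0%), 897 had an unadjusted p under 0.05, and DESeq2 called 62. Leaving out SCL 3 gave 54 calls and leaving out ECL 4 gave 2. None of the 10 astrocyte genes was called, and *Gja1* and *Vim* had an unadjusted p under 0.05. *Gja1* was lower after ECL than after SCL by a log2 fold change of -0.98 (95% interval -1.60 to -0.35, unadjusted p = 0.00545, adjusted p = 0.491, edgeR). *Vim* was lower by -0.58 (95% interval -1.07 to -0.09, unadjusted p = 0.0250, adjusted p = 0.629, edgeR). *Glul* (-0.56, 95% interval -1.17 to 0.05) and *Aldh1l1* (-0.37, -0.76 to 0.03) had intervals that included 0. *Gfap* differed by -0.12 (-0.47 to 0.23), *Slc1a2* by 0.02 (-0.32 to 0.37) and *Slc1a3* by -0.02 (-0.38 to 0.34). By their column headings 1 SCL culture was male and 3 were female, and 3 ECL cultures were male and 1 was female. With sex as a term, chosen after seeing the data, *Gja1* was at -0.79 and *Vim* at -0.84, with adjusted p of 0.441 and 0.263 (edgeR).

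Because fewer astrocytes and less RNA per astrocyte cannot be told apart in bulk tissue, the reactive genes were also read relative to the housekeeping genes of the same library. The reference was the geometric mean of the 7 housekeeping genes, which ranged over 376 to 567 CPM in the controls, 411 to 540 after SCL and 362 to 405 after ECL. *Gfap* was 4.38 ± 0.79 (SD, n = 5) times this reference in controls, 7.09 ± 0.78 (n = 4) after SCL and 8.07 ± 0.51 (n = 4) after ECL. The highest control stood at 5.04 and the lowest lesioned library at 6.23. The reference itself moved: it holds *Aqp4*, *Aldh1l1* and *Glul*, each called after at least 1 lesion. It averaged 443 CPM in controls, 485 after SCL and 387 after ECL. The mean *Gfap* level was 3419 CPM after SCL and 3122 after ECL, so its higher ratio after ECL came with a lower reference. *Serpina3n* was 0.339 ± 0.106 times the reference in controls, 0.689 ± 0.308 after SCL and 1.02 ± 0.21 after ECL, and here the highest control (0.471) slightly exceeded the lowest SCL library (0.460). *Vim* was 2.58 ± 0.39, 3.44 ± 1.05 and 2.86 ± 0.50 times the reference, with overlapping ranges in all 3 groups. These ratios are a description and were not tested.

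Per kilobase of exon, *Slc1a3* and *Gfap* were the most abundant of the 10 in controls, at 477 ± 167 and 449 ± 27.4 CPM per kilobase (SD, n = 5), and their ranges overlapped. Next were *Vim* at 237, *Slc1a2* at 201 and *Glul* at 141, whose ranges overlapped from neighbour to neighbour, and then *S100b* (79.9), *Serpina3n* (70.5), *Gja1* (48.4), *Aqp4* (29.5) and *Aldh1l1* (16.04). In that order the ranges of *Gfap* and *Vim*, of *Glul* and *S100b*, and of *Aqp4* and *Aldh1l1* were apart. After SCL *Gfap* led with 811 ± 72.3 (n = 4) and after ECL with 740 ± 58.5 (n = 4), in both cases without overlap with *Slc1a3*, at 363 and 355. *Serpina3n* in controls overlapped both of its neighbours. After ECL it was at 192, above *Slc1a2* at 153 without overlap, and after SCL at 156, with a range of 120 to 227 that overlapped *Slc1a2* at 151. After ECL *Gja1* was at 27.6 and no longer ranked above *Aqp4* at 40.8, and the ranges of these neighbours overlapped.

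**Figure D3:**
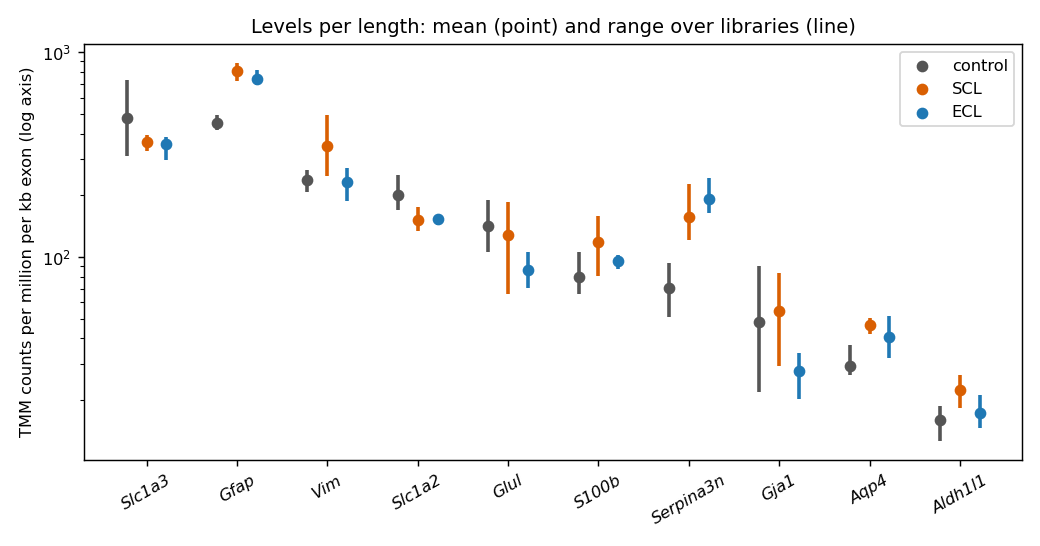
Mean (point) and range over libraries (line) of TMM-scaled CPM per kilobase of exon, on a log axis, for the 10 genes in the order of their control means. The Gfap points of the lesioned groups, at 811 and 740, are the highest of all and the Aldh1l1 points the lowest.

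Cultures of 1 group differed from each other in several of these genes at the same time. Control 4 was the highest control for *Slc1a2*, *Slc1a3*, *Glul*, *Gja1* and *Aqp4*, with *Slc1a3* at 6214 and *Gja1* at 925. Among the SCL cultures, *Gja1* and *Glul* had the same order, highest in SCL 1, then SCL 2, SCL 4 and SCL 3, and *S100b* had the reverse order. *Gfap* had the smallest spread of the 10 within the control group, with a CV of 6.09%, and *Slc1a2* within the ECL group, with 4.06%.

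The wider astrocyte programme was described with further lists of genes, whose medians stand beside 0.01 after SCL and -0.01 after ECL over all genes tested. Of 28 other astrocyte identity genes tested, 7 rose and 1 fell after SCL (median log2 fold change 0.14), and 6 rose and 4 fell after ECL (median 0.06). The 8 and 10 called stand beside 24.9% and 27.8% of all genes called. *Aldoc*, a glycolytic aldolase of astrocytes, went from 640 ± 96.1 CPM (SD, n = 5) to 1927 ± 1281 (n = 4) after SCL and 1597 ± 717 (n = 4) after ECL, with log2 fold changes of 1.59 and 1.33 (adjusted p = 0.00669 and 0.00145, edgeR). *Atp1b2*, a subunit of the sodium pump, rose by 1.16 and 1.75 (adjusted p = 0.0142 and 0.000713, edgeR). *Pla2g7*, a secreted phospholipase, rose by 0.93 and 0.72 (adjusted p = 0.00585 and 0.0330, edgeR). *Sox9*, the transcription factor of astrocyte fate, went from 710 ± 200.2 in controls to 345 ± 28.0 after ECL (log2 fold change -1.03, adjusted p = 0.00166, edgeR) and was at 484 ± 89.5 after SCL (-0.55, adjusted p = 0.0645, edgeR). *Plpp3*, a lipid phosphatase, fell after ECL (-0.69, adjusted p = 0.0120, edgeR) and *Slc4a4*, a bicarbonate transporter, after SCL (-0.44, adjusted p = 0.0454, edgeR). For the other lesion *Plpp3* had -0.31 and *Slc4a4* -0.29 (adjusted p = 0.254 and 0.135, edgeR). The higher calls after SCL numbered 4 without control 5 or without SCL 2, and the lower calls after ECL numbered 2 without control 4, ECL 1, ECL 2 or ECL 4. The *Slc4a4* call was lost without control 3, 4 or 5, SCL 1, SCL 3 or SCL 4.

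Genes that other work assigns to all reactive astrocytes, whatever the injury, were read next. After SCL 2 of 10 rose (median 0.32), where 13.1% of all genes were called higher, and after ECL 1 of 9 (median 0.29), where the share was 15.2%, and 0 fell. *Timp1*, an inhibitor of matrix metalloproteinases, was at 10.4 ± 4.42 CPM (SD, n = 5) in controls, 44.5 ± 15.6 (n = 4) after SCL and 37.0 ± 14.0 (n = 4) after ECL, with log2 fold changes of 2.09 and 1.83 (adjusted p = 0.00213 and 0.00144, edgeR). *S1pr3*, a sphingosine-1-phosphate receptor, rose after SCL by 0.73 (adjusted p = 0.0103, edgeR) and had 0.37 after ECL (adjusted p = 0.110, edgeR). *Lcn2*, named here after its values were seen as a widely used reactive marker, had 0.50 after SCL and 0.10 after ECL (adjusted p = 0.120 and 0.773, edgeR).

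Of the genes assigned to astrocytes in neuroinflammation, 5 of 11 rose after SCL (median 0.52), and after ECL 3 of 11 rose and 1 fell (median 0.19). For scale, the SCL fit called 13.1% of its whole gene set as risen. The ECL fit called 15.2% of its own set as risen and 12.5% as fallen. *Serping1*, the inhibitor of complement C1, rose by 0.58 and 0.91 (adjusted p = 0.0265 and 0.00126, edgeR). *Srgn*, a proteoglycan core protein that microglia make as well, rose by 0.75 and 0.91 (adjusted p = 0.0167 and 0.0150, edgeR). *Ggta1*, a galactosyltransferase, rose by 0.60 after SCL (adjusted p = 0.00687, edgeR) and had 0.41 after ECL (adjusted p = 0.0532, edgeR). *Fkbp5*, a co-chaperone of steroid receptors, fell by 0.43 after ECL (adjusted p = 0.0410, edgeR) and had -0.12 after SCL (adjusted p = 0.599, edgeR). *C3*, the complement component often taken as the marker of this state and named here after its values were seen, had 0.25 and 0.16 (adjusted p = 0.272 and 0.530, edgeR). The 5 calls after SCL became 2 without control 5 or SCL 3 and 3 without SCL 2, the 3 after ECL became 1 without ECL 2, and *Fkbp5* was not called without control 1, 2 or 3 or ECL 1, 2 or 4.

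Of the genes assigned to astrocytes after ischaemia, 3 of 9 rose after SCL (median 0.50) and 4 of 8 after ECL (median 0.39), and 0 fell. The shares of all genes called higher were 13.1% after SCL and 15.2% after ECL. *Tm4sf1*, a tetraspan membrane protein, rose by 0.80 and 0.90 (adjusted p = 0.00243 and 0.00422, edgeR). *Cd109*, a membrane-anchored protein that binds transforming growth factor beta, rose by 0.76 and 0.55 (adjusted p = 0.00465 and 0.0240, edgeR). *Cd14*, a co-receptor for bacterial lipid that microglia make as well, rose by 1.04 and 1.00 (adjusted p = 0.0239 and 0.0178, edgeR). The 4 calls after ECL became 2 without control 1, ECL 2 or ECL 4.

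Of 9 tested of 14 genes of the gp130 and STAT3 pathway, through which cytokines of the interleukin-6 family induce *Gfap*, 0 were called after either lesion by edgeR and 0 by DESeq2, with medians of -0.04 after SCL and -0.05 after ECL. Over all genes tested edgeR called 24.9% after SCL and 27.8% after ECL, and DESeq2 called 30.3% and 32.2%. At an unadjusted p under 0.05 there were 0 after SCL and 1 after ECL (*Lifr*, a cytokine receptor subunit, -0.41). *Stat3* and *Socs3*, the factor and its feedback inhibitor, were named after their values were seen. *Stat3* lay at 85.8 ± 19.97 CPM (SD, n = 5) in controls, 99.1 ± 15.5 (n = 4) after SCL and 97.8 ± 15.4 (n = 4) after ECL. *Socs3* ranged over 0.874 to 14.96 CPM in controls, 9.35 to 17.4 after SCL and 9.78 to 12.6 after ECL, and had log2 fold changes of 0.73 ± 0.53 (SE) and 0.52 ± 0.49, so that a rise of the size seen for *Gfap* could not be detected for it. The other 5 of the list, *Cntfr*, *Il6*, *Lif*, *Cntf* and *Osm*, were under the count filter and were not tested. *Osm*, which encodes the cytokine oncostatin M and is named after its values were seen, was at 2.26 to 3.24 CPM in controls, 0.688 to 1.30 after SCL and 0.226 to 0.523 after ECL, so that these low levels lay apart. Of the genes above the filter, 23.6% after SCL and 25.0% after ECL also lay apart from the controls. With every symbol tested, scarce ones included, the median log2 fold change was -0.40 after SCL and -0.49 after ECL. The gap of *Osm* was therefore not read as particular to it.

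The genes that work beside the 10 were read in the same way. Of 9 other intermediate filament genes and linkers, 0 rose and 6 fell after SCL (median -0.54), and 0 rose and 5 fell after ECL (median -0.43). Over all genes 11.8% and 12.5% were called lower after SCL and ECL. The 6 were *Nefm*, *Dst*, *Synm*, *Nefl*, *Nefh* and *Ina*, of which *Nefl*, *Nefm*, *Nefh* and *Ina* encode filament proteins of neurons. *Nefm*, the medium neurofilament protein, went from 59.3 ± 8.23 CPM (SD, n = 5) to 29.0 ± 5.05 (n = 4) after SCL and 35.9 ± 3.36 (n = 4) after ECL (adjusted p = 0.00213 and 0.00378, edgeR). *Dst*, a linker between filaments and other cytoskeleton, fell by 0.74 and 0.43 (adjusted p = 0.00254 and 0.0340, edgeR), and *Lmna*, a protein of the nuclear lamina, fell after ECL by 0.93 (adjusted p = 0.00141, edgeR). After SCL *Lmna* had -0.41 (adjusted p = 0.0567, edgeR). The 5 calls after ECL became 3 without control 5, ECL 2 or ECL 4.

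Of 10 further genes of the glutamate-glutamine cycle, 3 rose after SCL (median 0.21) and 1 after ECL (median 0.23), and 0 fell. Beside this list and the next ones stand 13.1% of all genes called higher and 11.8% called lower after SCL. After ECL these shares were 15.2% and 12.5%. *Slc38a2*, a neuronal glutamine carrier, rose after SCL by 0.67 (adjusted p = 0.00370, edgeR), and *Glud1*, glutamate dehydrogenase, by 0.51 (adjusted p = 0.00846, edgeR). After ECL they had 0.47 and 0.27 (adjusted p = 0.0523 and 0.159, edgeR). *Slc38a3*, the glutamine carrier of astrocytes, rose by 1.08 and 0.96 (adjusted p = 0.0255 and 0.0326, edgeR), at 9.29 CPM in controls, and its ECL call was lost without control 4, control 5, ECL 2 or ECL 4. Of 8 other connexin and glial potassium channel genes tested after SCL (median 0.32) and 6 after ECL (median 0.06), *Gjb6* was the one called. *Gjb6*, the connexin that astrocytes make beside that of *Gja1*, went from 39.4 ± 6.38 CPM (SD, n = 5) to 81.3 ± 11.7 (n = 4) after SCL and 77.0 ± 29.0 (n = 4) after ECL, with log2 fold changes of 1.04 and 0.97 (adjusted p = 0.00160 and 0.00665, edgeR). Without control 2, 2 genes of this list were called after SCL. Of 8 genes of the complex that anchors the water channel at the end-feet, 0 rose and 1 fell after each lesion (medians -0.05 and -0.12). It was *Utrn*, which encodes utrophin, with -0.84 and -0.73 (adjusted p = 0.00485 and 0.00215, edgeR).

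**Figure D4:**
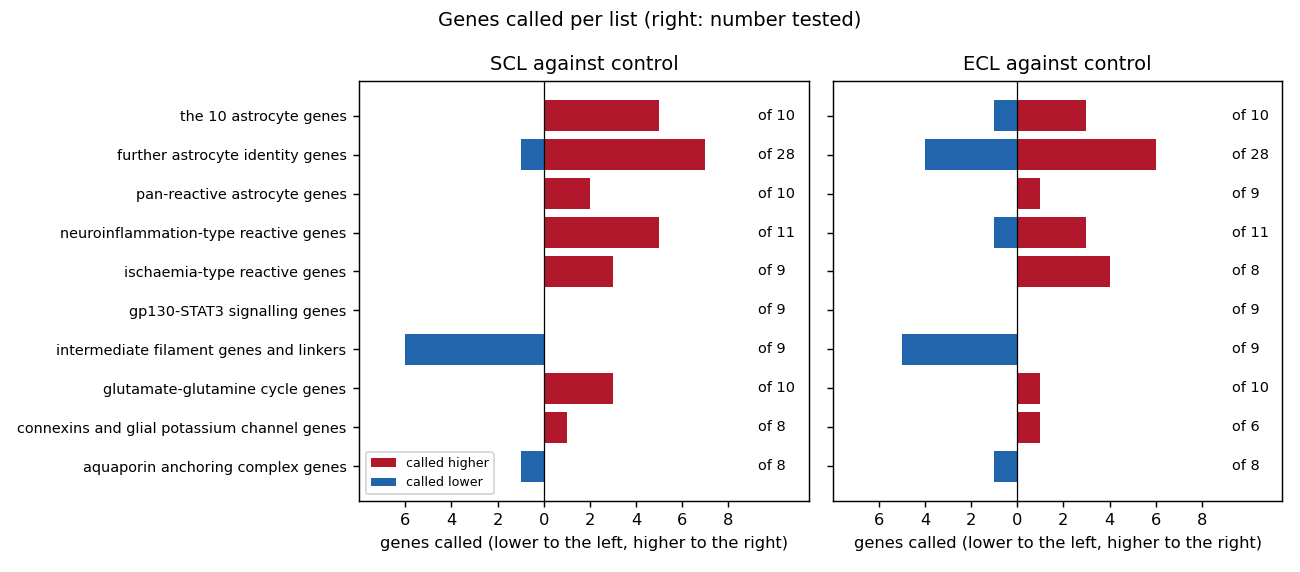
Number of genes called higher (to the right) and lower (to the left) at an adjusted p under 0.05 for the 10 astrocyte genes and 9 related lists, with the number tested at the right edge, for SCL on the left and ECL on the right. The intermediate filament list has calls in the lower direction alone, 6 after SCL and 5 after ECL, and the gp130-STAT3 list has none. Over all genes tested 24.9% were called after SCL and 27.8% after ECL.

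Markers of other cell types moved in the same libraries, where 13.1% of all genes were called higher after SCL and 15.2% after ECL. All 10 microglia markers rose after SCL (median 0.97) and 6 of 10 after ECL (median 0.80), with summed levels of 376 to 444 CPM over the control libraries, 811 to 1552 over the SCL libraries and 812 to 1143 over the ECL libraries. *Tyrobp*, a signalling adaptor of microglia, rose by 2.49 and 2.59 (adjusted p at most 0.00479, edgeR). Its level was 14.8 to 37.6 CPM in controls, 66.5 to 387 after SCL and 90.5 to 242 after ECL, and the SCL libraries had an SD of 156 around a mean of 152. *Aif1*, which encodes Iba1, rose by 1.18 and 0.91 (adjusted p = 0.00157 and 0.00454, edgeR). Of 8 oligodendrocyte markers 3 rose after each lesion (*Mog*, *Opalin* and *Mbp*, medians 0.38 and 0.43 for the list) and 0 fell. *Mog*, a myelin protein, went from 59.5 ± 11.1 CPM (SD, n = 5) to 140 ± 27.2 (n = 4) and 148 ± 39.0 (n = 4). The summed oligodendrocyte level was 4303 to 5767 in controls, 4321 to 5442 after SCL and 3870 to 5954 after ECL. Of 5 precursor markers *Gpr17* was called, higher after both lesions (1.36 and 0.92), and its ECL call was lost without control 1, ECL 2 or ECL 4. Their summed level was 141 to 208 in controls, 161 to 244 after SCL and 141 to 194 after ECL.

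Of 10 neuron markers 3 fell after SCL (median -0.19) and 4 after ECL (median -0.17), where 11.8% and 12.5% of all genes were called lower, with summed levels of 4067 to 4854 CPM in controls, 3521 to 4682 after SCL and 3528 to 4904 after ECL. *Rbfox3*, which encodes NeuN, fell by 0.45 and 0.65 and *Thy1*, a surface protein of neurons, by 0.57 and 0.87 (adjusted p at most 0.0472, edgeR), while *Snap25*, a synaptic fusion protein, had 0.07 and 0.00265. The 3 calls after SCL became 1 or 0 without control 2, 3 or 5 or SCL 1, 2 or 3, and the 4 after ECL became 2 without ECL 1 and 1 without ECL 4. Of 5 proliferation genes, 4 of 5 tested rose after SCL (median 1.70) and 1 of 3 after ECL (median 0.10), with summed levels of 27.3 to 69.5 in controls, 106 to 116 after SCL and 43.4 to 96.6 after ECL. Beside these stand 13.1% and 15.2% of all genes called higher after SCL and ECL. The 4 proliferation calls after SCL became 2 without SCL 2 or SCL 3. *Cdk1*, the mitotic kinase, was at 3.11 ± 2.50 CPM (SD, n = 5) in controls, 21.5 ± 4.52 (n = 4) after SCL and 13.5 ± 6.16 (n = 4) after ECL, and its ECL call was lost without ECL 1, 2 or 4. Endothelial transcripts were scarce: *Cldn5* and *Pecam1*, which define endothelium, were below 1 CPM on average in every group. Of 8 endothelial and mural markers 3 passed the filter and *Flt1*, a receptor for vascular growth factor, fell after both lesions (-0.91 and -0.85), with summed levels of 42.1 to 55.0 in controls, 39.6 to 47.5 after SCL and 36.8 to 68.3 after ECL. Of 5 fibroblast and 4 ependymal or choroid plexus markers 1 each passed the filter and was not called, with summed fibroblast levels of 27.1 to 205 and summed ependymal levels of 3.86 to 113 over the 13 libraries. Of 4 CA1 pyramidal cell markers 1 fell after SCL (*Pou3f1*, -0.82, adjusted p = 0.00669, edgeR) and 0 were called after ECL, with summed levels of 185 to 393. Of 2 dentate granule cell markers that passed the filter *Stxbp6* fell after both lesions (-0.72 and -0.67), with summed levels of 42.2 to 84.1. What these cell types contributed to the changes of *Vim*, *Serpina3n*, *S100b* and the reactive lists was not tested.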

How the data were processed

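Poly(A) RNA of CA1 from 13 single cultures was sequenced in pairs after a low-input library preparation with PCR amplification. Per the submitters' processing notes the authors trimmed reads with cutadapt 3.5, aligned them to mm10 (GRCm38) with STAR 2.7.8a and counted them per gene symbol with featureCounts 2.0.1, without strand by the study's methods. The deposited values are raw counts, 1 table per library. Amplified reads without molecular identifiers are not independent molecules. The unstranded counts cannot separate overlapping genes.

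Tests were two-sided edgeR 4.0.16 quasi-likelihood fits in R 4.3.3, with 5 control and 4 lesioned libraries in each fit, or 4 against 4 between lesions. As in the study, genes whose normalized counts averaged under 150 were left out, with TMM factors over these genes, Benjamini-Hochberg adjustment over all of them and a threshold of 0.05. The fit was also run on simulated counts in which few genes were changed, by 2- or 4-fold, with independent noise. In the data 24.9% and 27.8% of genes were called after SCL and ECL, so the simulated shares need not carry over. In each comparison the fit called 100% of the genes changed 4-fold. For SCL (11293 genes) it called 74.8% of those changed 2-fold and 5.17% of its calls were false, for ECL (11093 genes) 82.7% and 7.07%, and for ECL against SCL (12104 genes) 71.2% and 8.99%. Alternatives were DESeq2 1.42.0, other scalings and filters, halved counts, an offset for length and GC content (mgcv 1.9.3), 1 fit of all libraries, a replicate block and leaving out each library. Sex and the number in the column headings as terms were added after seeing the data. No pair of libraries was a duplicate (highest correlation 0.984).

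The 10 genes and the other lists were chosen with earlier results of these data known. Of each other list, at most 2 called genes per lesion and direction with the smallest adjusted p were named, and for markers of other cell types also the first 2 of the list; other names were added after values were seen, and 2 genes the rule would name are not reported here. Annotation came from a GENCODE table of GRCm38, and promoter sequences from RefSeq. The marker *Nov* was not analysed here.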

Additional observations from a re-analysis of the deposited data

Results flagged for a closer look

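The level of *Aqp4* in control 4 was 231 CPM, while the other 4 controls lay between 165 and 182. Its gap to the nearest control was larger than Dixon's 95% limit allows for a group of 5. It was 1 of 30 such tests over the 10 genes and 3 groups, of which chance flags about 1 in 20.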

How the results depend on the processing

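*Gfap* and *Serpina3n* were called after both lesions, and *Aqp4* after SCL, under all 21 alternatives. After SCL, 5 of the 10 genes were called, against 3 with upper-quartile scaling, 3 with the replicate block, 3 with the heading number as a block, and 3 to 6 when 1 library was left out (3 without control 1, 3, 4 or 5, SCL 2 or SCL 4). DESeq2 called 7, and TMM over all symbols, every symbol, filterByExpr and 1 fit of all libraries 6 each, with *S100b* the added gene. After ECL 4 were called, against 3 with the replicate block, with the sex term or with the heading number as a block (adjusted p of *Aqp4* 0.0762 and 0.0977 for the last pair, edgeR), each losing *Aqp4*, and 3 with TMM over all symbols, losing *Glul*. DESeq2 called 5, testing every symbol 5 and leaving out 1 library 3 to 4. Whether the replicate numbers paired the cultures was not tested. Same-numbered libraries correlated at -0.17 to 0.43 in their deviations from the group means for ECL and control. The range was -0.10 to 0.24 for SCL and control and -0.14 to 0.55 for both lesions. The highest value was of a same-numbered pair for ECL and control (control 3 and ECL 3) and for both lesions (SCL 1 and ECL 1). For SCL and control it was of control 2 and SCL 3 (0.32), and not every library correlated best with its own number. The replicate block, which leaves out control 5, gave 2336 calls over all genes after SCL and 2680 after ECL. Between the lesions, testing every symbol with at least 1 count called 217 of 44182 symbols (0.491%), with *Gja1* alone of the 10 among them.

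Values that changed sign were not called on either side. After SCL, *Glul* was 0.079 with TMM over all symbols and 0.079 with every symbol tested, and -0.39 to 0.079 with 1 library left out; *Gja1* was -0.10 to 0.52 with 1 left out. After ECL, *Vim* was 0.16 with TMM over all symbols, 0.16 with every symbol, 0.043 with filterByExpr, 0.057 with the offset for length and GC content, and -0.10 to 0.080 with 1 library left out. *S100b* was -0.063 with that offset, and *Aldh1l1* -0.00021 to 0.19 with 1 left out. Between the lesions, with sex as a term, *Slc1a2* was -0.00049 and *Slc1a3* 0.047; with 1 library left out they were -0.032 to 0.092 and -0.066 to 0.052. The cause was not tested. TMM over all symbols raised the share of higher calls after SCL from 52.8% to 80.8%, and after ECL from 54.8% to 77.8%. In the simulated counts with 4 lesioned cultures, 2-fold changes were recovered less often than 4-fold ones, and smaller ones can be missed.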
